A study of Mus musculus with 6 samples.

Results

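The 8 genes described here belong to the alternative activation program that macrophages take up in response to interleukin-4 (IL-4) and interleukin-13 (IL-13). Their choice was made with earlier results of these data known. They were taken by symbol from the count table: the target genes *Mrc1*, *Mgl2*, *Retnla*, *Chil3* and *Arg1*, the receptor chains *Il4ra* and *Il13ra1*, and the transcription factor *Stat6*. They are 8 of 24061 rows, and all 8 passed the filter on low counts that left 13348 genes for testing. Bulk RNA-seq had been done on F4/80+ macrophages sorted by Lyve-1, a hyaluronan receptor of the cell surface, to ask whether Lyve-1+ and Lyve-1- cells of the mammary gland carry different transcripts. The cells were CD45+CD11b+F4/80+ and came from the inguinal glands, cleared of lymph nodes, of female nulliparous FVB/N mice with no engineered allele or treatment named. There were 3 Lyve-1+ and 3 Lyve-1- libraries, and each held the pooled cells of 4 mice. In both subsets replicate 1 came from mice of 6 weeks and replicates 2 and 3 from mice of 10 weeks, so p-values measure the spread between pools and not between animals.

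IL-4 and IL-13 are made mainly by T helper cells, innate lymphoid cells, basophils and eosinophils. IL-4 binds the IL-4 receptor alpha chain, encoded by *Il4ra*, which then pairs with the common gamma chain (*Il2rg*) or with the chain encoded by *Il13ra1*, and the second pairing also binds IL-13. Janus kinases on the receptor tails phosphorylate STAT6, which enters the nucleus and switches on genes for lectins, secreted proteins and arginine metabolism. In the mouse these targets are widely used to mark macrophages of tissue repair, parasite infection and adipose tissue, and several of them also have other inducers.

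The libraries held between 6478007 and 21406839 counts. Levels below are CPM, the counts scaled to a common library size by TMM, and 0 counts allow a level of up to 3 counts, or 0.143 to 0.435 CPM, a limit for counting error only. *Lyve1* checked the labels, with 1.42 to 7.39 CPM in the Lyve-1- libraries and 593 to 2338 in the Lyve-1+ libraries. Of 10 macrophage markers, all 10 were detected, and without *Lyve1* they summed to 4827 to 7436 CPM in Lyve-1- and 5815 to 7190 in Lyve-1+ libraries. Markers of other cells were present too. Their sums were higher in every Lyve-1- library for dendritic cells (471 to 1425 against 142 to 431 CPM) and lymphocytes (235 to 394 against 54.4 to 190), and higher in every Lyve-1+ library for neutrophils (217 to 394 against 52.5 to 150) and fibroblasts (496 to 1426 against 279 to 355). Epithelial markers (54.8 to 458 against 76.2 to 125) and those of adipocytes and endothelium (72.9 to 98.3 against 77.2 to 182) overlapped. In bulk samples of this kind, fewer cells of a type and less RNA per cell cannot be told apart.

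Among the 8 genes, *Mrc1* and *Retnla* had the clearest differences, each with a mean in the Lyve-1+ libraries more than double that in the Lyve-1- libraries. *Mgl2* and *Il4ra* had means higher by smaller margins (1.28 and 1.23-fold) within their spread, *Il13ra1* and *Stat6* lay closer to equal (0.877 and 1.04-fold), and *Chil3* and *Arg1* varied between pools far more than between subsets. The call rule asked for a log2 fold change between 1 and 10 in size and an edgeR adjusted p under 0.01. By that rule 0 of the 8 genes were called, where 0.112% of all 13348 genes tested were (15 genes), and at an adjusted p under 0.05 it was again 0, where 0.629% of all genes passed. At an unadjusted p under 0.05 the test marked 2 of them, *Mrc1* and *Retnla*, against 7.69% of all genes. DESeq2, the study's own tool, called 1 of the 8, *Mrc1*, against 0.952% of the genes it gave an adjusted p. At an adjusted p under 0.05 DESeq2 passed the same 1 of the 8 and 2.16% of all genes. All 3 Lyve-1+ libraries lay above all 3 Lyve-1- libraries for 1 gene, again *Mrc1*, and 7.82% of all genes had that order. The 8 log2 fold changes had a median of 0.32, with 7 above 0 and 1 below, and the median of all genes tested was -0.01.

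**Figure D1:**
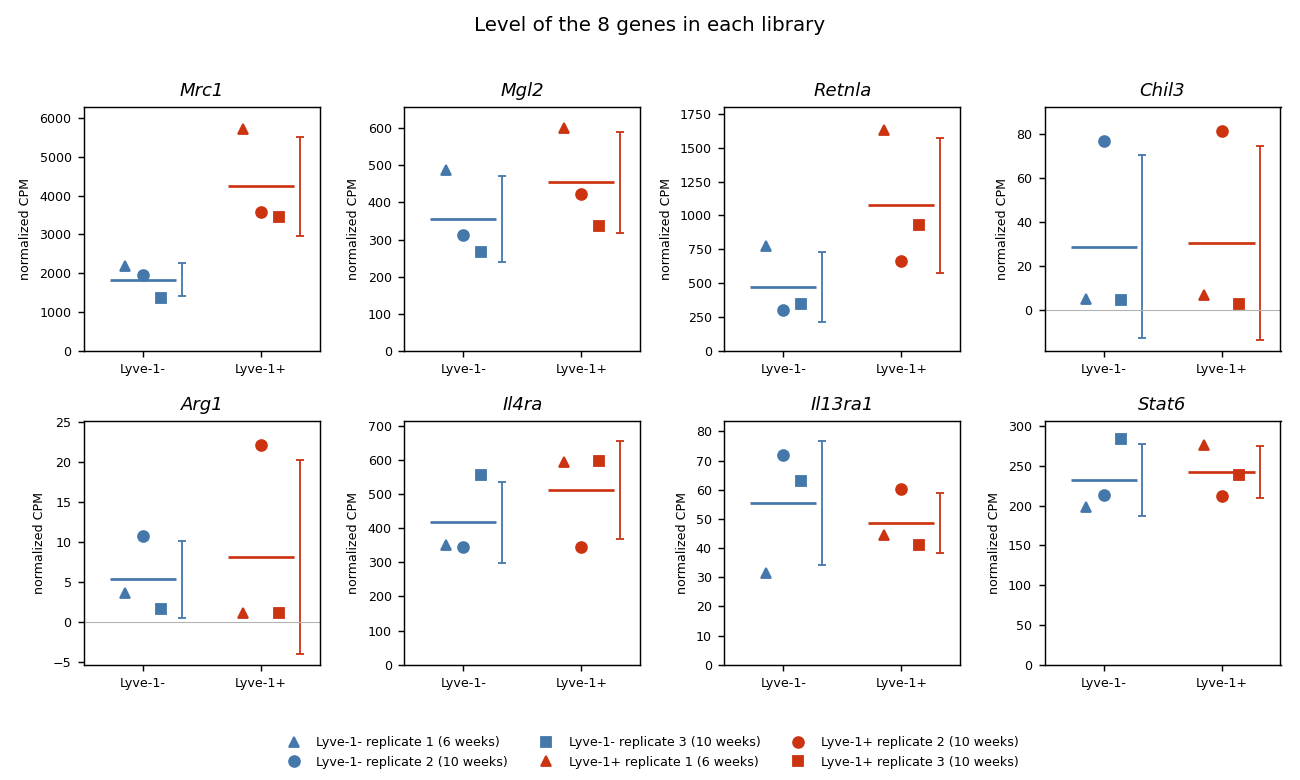
Normalized CPM of the 8 genes in each of the 6 libraries, with the mean (horizontal line) and SD (bar, n = 3 pools) of each subset; triangles are 6-week pools, circles and squares 10-week pools. *Mrc1* has all Lyve-1+ points (3440.2 to 5708) above all Lyve-1- points (1356 to 2188), while *Chil3* and *Arg1* have their highest point in replicate 2 of both subsets.

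*Mrc1* encodes the macrophage mannose receptor CD206, which takes up glycoproteins with mannose or sulfated sugars. Replicates 1, 2 and 3 had 2188, 1962 and 1356 CPM in the Lyve-1- subset and 5708, 3565 and 3440.2 CPM in the Lyve-1+ subset. The lowest Lyve-1+ library was thus well above the highest Lyve-1- library. The means were 1835 ± 430.2 (SD, n = 3) and 4238 ± 1275 CPM (SD, n = 3), which gave a log2 fold change of 1.21 (standard error, SE, 0.26 and edgeR adjusted p = 0.056), or 2.31-fold by the means with a fitted 95% interval of 1.56 to 3.41-fold. Between libraries of the same number, which share an age, *Mrc1* was higher by 2.61, 1.82 and 2.54-fold in the Lyve-1+ one. DESeq2 gave a log2 fold change of 1.17 with an adjusted p of 0.00276, and over 17 alternative fits the adjusted p of *Mrc1* ran from 0.00016 to 0.744 with a log2 fold change of 0.73 to 1.37, the lowest without Lyve-1- replicate 3 and Lyve-1+ replicate 1. The fit without those libraries kept a 6-week library only in the Lyve-1- subset, so it mixed age with subset. *Mrc1* is one of the genes the study picked on these same libraries, so its direction here is not independent evidence. The gene lies at chr2:14229392-14332057 of mm10 on the plus strand, and hosts the microRNA gene *Mir511*, which shares none of its exonic sequence.

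*Mgl2* encodes a galactose-type lectin (CD301b) that is a common marker of IL-4-treated macrophages and of some dermal dendritic cells. Its Lyve-1- replicates 1, 2 and 3 had 488, 313 and 267 CPM, and its Lyve-1+ replicates had 602, 424 and 336 CPM. Both 6-week libraries were above the 10-week libraries of their own subset, and because of that the subsets overlapped. Within each age the Lyve-1+ libraries were all above the Lyve-1- ones, which held for 3 of the 8 genes (*Mrc1*, *Mgl2* and *Retnla*) and for 11.1% of all genes. The means were 356 ± 117 and 454 ± 135 CPM (SD, n = 3 each), which gave a log2 fold change of 0.35 (SE 0.30, edgeR adjusted p = 1), and the 95% interval of the difference ran from 0.819 to 1.99-fold. Without Lyve-1- replicate 3 and Lyve-1+ replicate 1, the 2 libraries with the most olfactory receptor genes detected (a sign of stray counts described below), the value was -0.10. That fit kept a 6-week library only in the Lyve-1- subset, so age and subset were mixed in it. *Mgl2* (chr11:70130329-70137550, plus strand) has a close relative, *Clec10a*, which encodes the lectin CD301a. Of the 1799 different 50-base stretches in the *Mgl2* transcripts, 14.5% also occur in transcripts of another gene, 242 of 261 of them in *Clec10a*, so reads from these stretches could have been assigned to either or to none.

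*Clec10a*, named here after its values were seen, had 389, 271 and 218 CPM in Lyve-1- replicates 1, 2 and 3 and 712, 471 and 584 CPM in the Lyve-1+ replicates. Its Lyve-1+ libraries were all above its Lyve-1- libraries, with a log2 fold change of 1.01 (SE 0.28) that did not pass (edgeR adjusted p = 0.178). DESeq2 gave *Clec10a* a log2 fold change of 0.98 with an adjusted p of 0.0471. Per kb of exon, the ratio of *Mgl2* to *Clec10a* was 1.60 to 1.74 in the Lyve-1- libraries and 0.798 to 1.25 in the Lyve-1+ libraries. The 2 ranges of this ratio did not overlap, although neither gene was called and the ratio itself was not tested.

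*Retnla* encodes RELM-alpha (Fizz1), a small secreted protein of tissue repair and parasite infection. The gene is short, with 599 bases of exon at chr16:48842551-48844461 on the plus strand. STAT6 binds the triplets TTC and GAA across a spacer of 4 bases, whereas other STAT proteins favour a spacing of 3. The RefSeq promoter windows (GRCm38.p6, 250 bases before to 50 after a transcript start) were therefore searched for TTCNNNNGAA and TTCNNNGAA, which read the same on both strands. The first was found in 7.0% and the second in 8.3% of 32851 windows. A window was given for 7 of the 8 genes, all but *Arg1*. Of these *Retnla* alone held the spacing of 4, and *Chil3* alone held the spacing of 3. The first base of the *Retnla* match lay 145 bases before the RefSeq start of its window, which is not the gene start given above. The matches are shown with 20 bases on either side, the triplets and spacer in capitals, to let the *Retnla* site be compared with those of 3 other target genes, whose values are given with the pathway:
Retnla (chr16:48842444-48842493, plus strand): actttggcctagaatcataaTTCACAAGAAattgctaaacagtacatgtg
Ccl17 (chr8:94810279-94810328, plus strand): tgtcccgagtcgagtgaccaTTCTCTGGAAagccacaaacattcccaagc
Clec7a (chr6:129472881-129472930, minus strand): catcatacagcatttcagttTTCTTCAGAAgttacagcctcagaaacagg
Pdcd1lg2 (chr19:29410817-29410866, plus strand): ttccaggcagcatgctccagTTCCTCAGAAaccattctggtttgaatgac
A match describes letters in a window and not a bound site. Of the other target genes, only *Clec7a*, *Chil4*, *Ccl17*, *Ccl22*, *Pdcd1lg2* and *F13a1* had a window, so *Clec10a* and *Ccl24*, for instance, were not searched. Among the genes searched, those with the spacing of 4 did not share a direction. The fitted log2 fold change was above 0 for *Retnla* and below 0 for the other 3.

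*Retnla* had 771, 299.5 and 346 CPM in Lyve-1- replicates 1, 2 and 3, and 1628, 663 and 929 CPM in the Lyve-1+ replicates. The subsets overlapped only because the 6-week Lyve-1- library (771) lay above the 10-week Lyve-1+ replicate 2 (663), and at each age the Lyve-1+ libraries were all higher. The means of 472 ± 260.1 and 1073 ± 499 CPM (SD, n = 3 each) gave a value of 1.18 on the log2 scale (SE 0.40, edgeR adjusted p = 0.369, unadjusted p = 0.0127), with a 95% interval of 1.23 to 4.18-fold. Between libraries of the same number *Retnla* was higher by 2.11, 2.21 and 2.68-fold in the Lyve-1+ one. With age as a second term the log2 fold change was 1.23 and the adjusted p 0.0169, and without Lyve-1- replicate 1 it was 1.72 with an adjusted p of 0.00989. The value was 0.75 without Lyve-1+ replicate 1 (edgeR adjusted p = 0.97), and without both Lyve-1- replicate 3 and Lyve-1+ replicate 1 it was 0.55 (edgeR adjusted p = 1). Leaving out Lyve-1- replicate 1 kept 6 weeks only in the Lyve-1+ subset. Leaving out Lyve-1+ replicate 1 kept it only in the Lyve-1- subset, so these fits mix age with subset. Over all 17 alternatives the adjusted p ran from 0.001 to 1, and 3 called *Retnla*. The fit without Lyve-1- replicate 1 was among them, and so was a fit of all libraries without a filter on low counts (edgeR adjusted p = 0.00482).

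*Chil3* encodes Ym1, a chitinase-like protein without enzyme activity that macrophages, neutrophils and some monocytes make. Replicates 1, 2 and 3 had 5.18, 76.7 and 4.78 CPM in the Lyve-1- subset and 7.12, 81.2 and 3.01 CPM in the Lyve-1+ subset. Both replicate 2 libraries stood more than 10-fold above the other 4, at nearly the same level in the 2 subsets. The log2 fold change between subsets was 0.08 with an SE of 1.53 (edgeR adjusted p = 1), so differences from 0.0841 to 13.3-fold lay within its 95% interval, and it ran from -2.50 (without Lyve-1+ replicate 2) to 2.70 with each library left out. The gene lies at chr3:106147554-106167564 on the minus strand, beside its near copy *Chil4*, and 28.5% of its 1536 different 50-base stretches also occur in another gene, 275 of 438 of them in *Chil4*. *Chil4* itself had 0 to 39 counts in a library. The likeness extends to the promoter, where both windows hold the spacing of 3 in nearly the same surroundings:
Chil3 (chr3:106167708-106167756, minus strand): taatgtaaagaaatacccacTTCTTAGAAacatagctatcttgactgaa
Chil4 (chr3:106219651-106219699, minus strand): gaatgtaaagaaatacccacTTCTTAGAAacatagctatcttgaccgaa

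*Arg1* encodes arginase 1, which turns arginine into ornithine and urea. Per kb of exon it had the lowest mean of the 8 genes, and it had 44, 121 and 11 raw counts in Lyve-1- replicates 1, 2 and 3 and 14, 464 and 9 in the Lyve-1+ replicates, or 3.68, 10.7 and 1.59 against 1.06, 22.1 and 1.13 CPM. The highest library of each subset was again replicate 2, the pattern of *Chil3*. Both replicate 2 libraries were above the other 4 for these 2 of the 8 genes and for 5.63% of all genes. The log2 fold change of *Arg1* between subsets was 0.61 with an SE of 1.57 (edgeR adjusted p = 1), and it was -1.26 (edgeR adjusted p = 1) with both replicate 2 libraries left out, an alternative added after the data were seen. The sign of the subset difference therefore depended on replicate 2, and on Lyve-1+ replicate 2 in particular, without which it was -2.27. Olfactory receptor genes, most of which are silent outside the nose, gave a measure of stray counts, and Lyve-1- replicate 3 detected 651 of the 1112, Lyve-1+ replicate 1 detected 370 and the other libraries 4 to 134. At their density of counts per kb, 5.89 of the 11 *Arg1* counts of Lyve-1- replicate 3 would be stray, as would 2.27 of the 14 counts of Lyve-1+ replicate 1. *Chil3* had 33 counts in Lyve-1- replicate 3, against 4.32 at that density. In the same library *Chil4* had 39 counts against 7.45 and *Il13ra2* had 36 against 6.03, with 10 or fewer of either in any other library. *Ass1* had 0 there against 6.39. The density is a mean and does not settle whether the counts of a single gene are stray.

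The monocyte gene *Ly6c2* moved with both genes. It had 18, 122 and 8.84 CPM in Lyve-1- replicates 1, 2 and 3 and 4.47, 68.5 and 4.76 CPM in the Lyve-1+ replicates, so its highest libraries were the same 2. *Ccr2*, the chemokine receptor of inflammatory monocytes, was highest in replicate 2 within each subset, at 529, 561 and 293 against 172, 363 and 142 CPM, but differed less between the pools. The 6 monocyte markers together summed to 742 to 1820 CPM in Lyve-1- and 740 to 1337 CPM in Lyve-1+ libraries, with none at 0 in all libraries, and the sum was highest in replicate 2 of each subset. Their part in the levels of *Arg1* and *Chil3* was not tested.

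**Figure D2:**
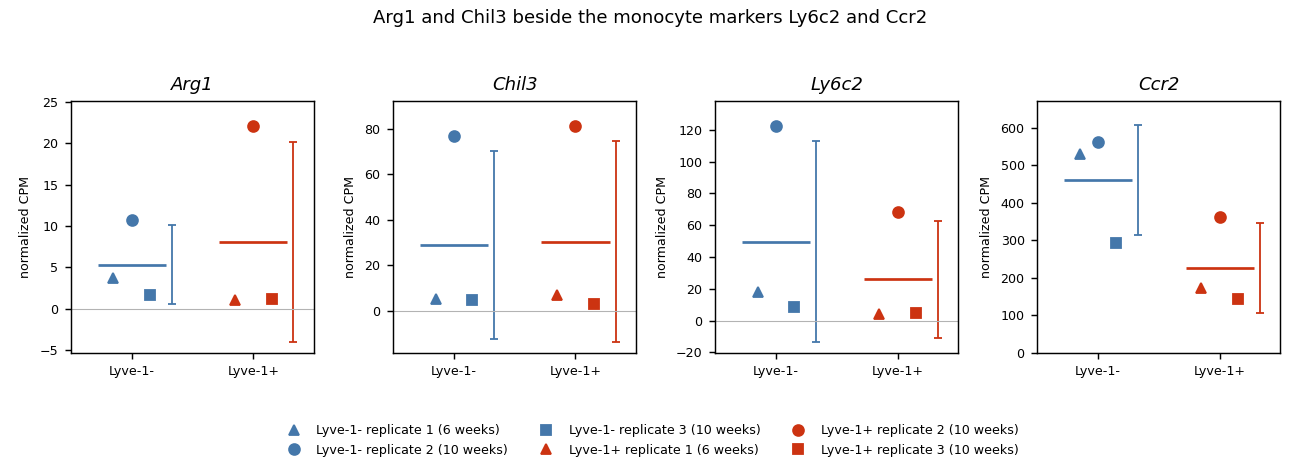
Normalized CPM of *Arg1*, *Chil3*, *Ly6c2* and *Ccr2* in the 6 libraries, with the mean (line) and SD (bar, n = 3 pools) of each subset; an SD wider than the mean takes the bar below 0. The circles, replicate 2, are the highest points of each subset in all 4 panels, at 10.7 and 22.1 CPM for *Arg1* and 76.7 and 81.2 CPM for *Chil3*.

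The receptor chains were present in both subsets without a difference that could be resolved. *Il4ra*, the chain that both cytokines need, had 351, 345 and 555 CPM in Lyve-1- replicates 1, 2 and 3 and 592, 346 and 597 CPM in the Lyve-1+ replicates. The Lyve-1+ library was above its same-numbered partner in all 3 pairs, but in the pair numbered 2 only by 345 against 346 CPM. Such an order in all 3 pairs held for 4 of the 8 genes and for 16.3% of all genes. The log2 fold change of *Il4ra* was 0.30 (SE 0.29, edgeR adjusted p = 1), with an interval of 0.798 to 1.89-fold. Its position is chr7:125552120-125579474 on the plus strand, and an antisense gene covers 571 bases, or 9.5%, of its exons. Since the strand setting of the counting is not given in the sources used here, reads from that antisense gene cannot be told apart.

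*Il13ra1* lets the receptor bind IL-13 and is needed for the form of the receptor that macrophages share with non-blood cells. It had 31.4, 71.8 and 62.9 CPM in Lyve-1- replicates 1, 2 and 3, and 44.5, 60.3 and 41 CPM in the Lyve-1+ replicates. The Lyve-1+ library was the higher one at 6 weeks, by 1.42-fold, and the lower one in both 10-week pairs. The log2 fold change was -0.19 (SE 0.42, edgeR adjusted p = 1) with an interval of 0.471 to 1.64-fold, and the 10-week difference minus the 6-week one was -0.92 (SE 0.89, edgeR adjusted p = 0.976). Without Lyve-1- replicate 2 the subset value was 0.13. *Il13ra1* lies at chrX:36112110-36171259 on the plus strand.

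*Stat6*, the factor that carries the signal to the nucleus, had the most even levels of the 8 genes. Lyve-1- replicates 1, 2 and 3 had 198, 214 and 284 CPM, and the Lyve-1+ replicates had 276, 212 and 238 CPM. The ranges of the subsets overlapped almost completely. The means were 232 ± 45.8 and 242 ± 32.4 CPM (SD, n = 3 each), which gave a log2 fold change of 0.06 (SE 0.27, edgeR adjusted p = 1), with an interval of 0.703 to 1.55-fold, and its sign turned with total library size in place of TMM (-0.0075) and in the 10-week libraries alone (-0.16). The gene (chr10:127642986-127660957, plus strand) overlaps *Nab2* on the other strand by 40 exonic bases, which is 0.9% of its exons.

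Compared per kb of exon, the 8 genes fell in an order that their CPM does not show. *Retnla* was the highest in every library, at 500.0 to 2718 CPM per kb, and ranked between 5 and 37 among the 13262 genes of known length. *Mrc1* followed with 213 to 896 CPM per kb and ranks of 23 to 125. Per kb *Retnla* exceeded *Mrc1* by 1.62 to 3.75-fold, although *Mrc1*, with more than 10 times the exon length, had the higher CPM throughout.

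*Mgl2* came next, at 127 to 288 CPM per kb with ranks of 113 to 240, and its Lyve-1+ levels overlapped the Lyve-1- levels of *Mrc1*. *Il4ra* with 57.4 to 99.5 and *Stat6* with 45.1 to 64.6 CPM per kb had ranges that overlapped each other. *Il13ra1*, at 8.46 to 19.3 CPM per kb, was below *Il4ra* in every library. *Chil3*, from 1.84 to 49.8, spanned the range of *Il13ra1* from below to above, and *Arg1* came last on average, from 0.476 to 9.92 CPM per kb with ranks of 3961 to 12139. The ratio of *Mrc1* to *Mgl2* per kb, in which each library serves as its own scale, was 1.48 to 2.06 in the Lyve-1- and 2.77 to 3.36 in the Lyve-1+ libraries, with no overlap and no test.

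**Figure D3:**
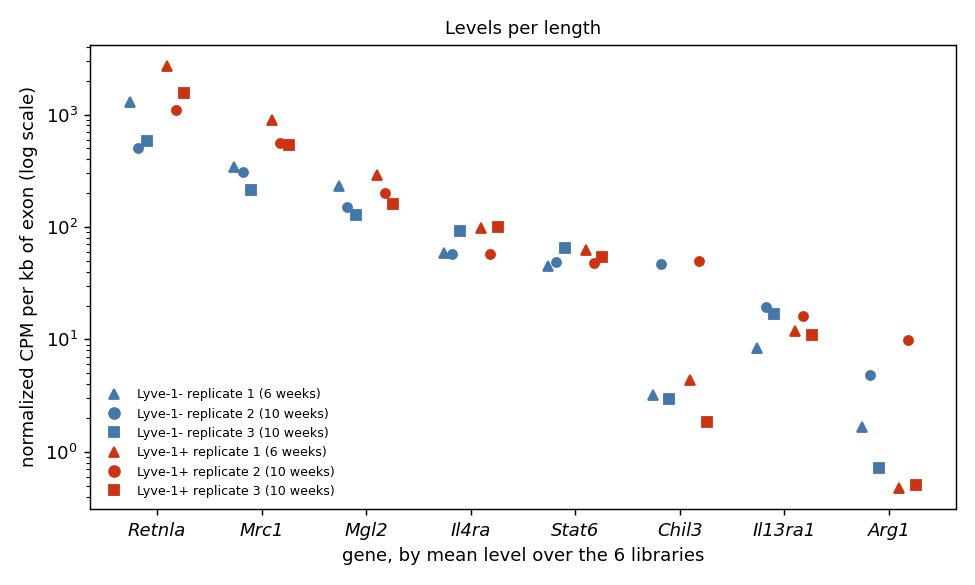
Normalized CPM per kb of exon (log scale) of the 8 genes in each library, ordered by the mean over the 6 libraries; blue is Lyve-1-, red is Lyve-1+. *Retnla* tops every library (500.0 to 2718), and *Arg1* and *Chil3* have the widest ranges.

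The 10-week pools were compared with the 6-week pools, with the subset kept in the model, to ask whether the stage of ductal growth bears on these genes. In both subsets, both 10-week libraries were below the 6-week library for 3 of the 8 genes, *Mrc1*, *Mgl2* and *Retnla*, and for 11% of all genes. The log2 fold change at 10 weeks was -1.15 for *Retnla* (SE 0.25, edgeR adjusted p = 0.236, unadjusted p = 0.000235). It was -0.71 for *Mgl2* (unadjusted p = 0.0139) and -0.55 for *Mrc1* (unadjusted p = 0.0248), both with an edgeR adjusted p of 1. These 3 genes were the ones of the 8 with an unadjusted p under 0.05, where 3.33% of all genes had one and 1.27% had one with the lower level at 10 weeks. By the call rule edgeR called 0 of the 8 genes for age, and 0% of all genes, and DESeq2 also called 0 of the 8. For *Retnla* DESeq2 gave a log2 fold change with age of -1.12 and an adjusted p of 0.0121, under 0.05 but not under 0.01. The count of the 8 called for age rose to 1 without Lyve-1- replicate 2 (*Retnla*) and to 2 without Lyve-1+ replicate 3 (*Retnla* and *Chil3*).

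*Chil3* and *Arg1* had fitted log2 fold changes with age of 2.77 and 1.87 (edgeR adjusted p = 1 for both), which came from replicate 2. In replicate 3 *Chil3* was below the 6-week level of its subset in both subsets. *Il4ra* and *Stat6* had log2 fold changes with age of 0.00 (SEs 0.31 and 0.29). With 1 pool of 6 weeks in each subset, age cannot be told apart from those pools. The interaction of subset and age was called by edgeR for 0 of the 8 genes and 0% of all genes, and by DESeq2 for 0 of the 8, and 0 of the 8 had an unadjusted p under 0.05 for it, where 4.59% of all genes did.

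The other genes of the pathway were taken from lists by role, 47 genes in all with the 8, of which 43 were tested. By the call rule 0 of the 43 were called. At an adjusted p under 0.05 edgeR passed 1 gene with more and 0 with less RNA in Lyve-1+ libraries, and at an unadjusted p under 0.05 there were 6 higher and 7 lower, or 30.2% of the 43 against 7.69% of all genes. DESeq2 called 2 of the pathway genes, and 0.952% of all genes. At an adjusted p under 0.05 DESeq2 passed 8 pathway genes, and 2.16% of all genes. They were *Mrc1*, *F13a1*, *Clec10a* and *Ccl24*, which were higher, and *Jak2*, *Ccl22*, *Pdcd1lg2* and *Tgm2*, which were lower. These shares describe the list, whose genes were chosen with earlier results known, and include *Mrc1* and *Retnla*. The log2 fold changes of the 43 had a median of -0.11, with 19 above 0 and 24 below.

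**Figure D4:**
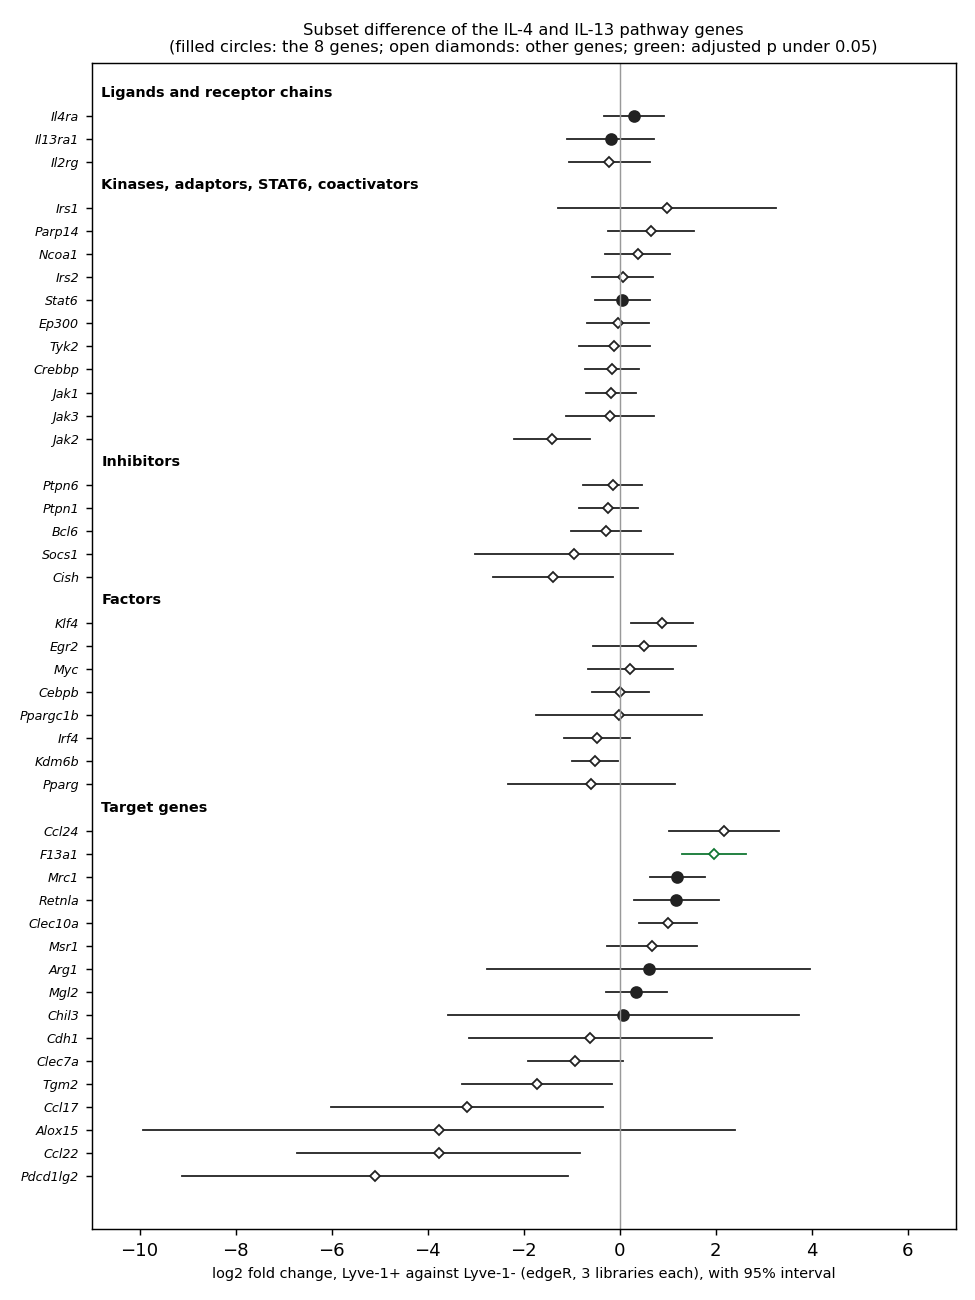
log2 fold change of Lyve-1+ against Lyve-1- libraries (3 each) with its 95% interval for the tested pathway genes, grouped by role; filled circles are the 8 genes, open diamonds the others, and green marks an adjusted p under 0.05. *F13a1*, at 1.97, is the gene in green, and the widest interval is that of *Alox15*, from -9.93 to 2.40.

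The ligand genes had few counts. *Il4* had 43, 4 and 13 counts in Lyve-1- replicates 1, 2 and 3 and 1, 0 and 0 counts in the Lyve-1+ replicates, and *Il13* had 11 counts in Lyve-1- replicate 3 and 0 in the other 5 libraries. Lyve-1- replicate 3 would hold 3.25 stray *Il4* and 3.19 stray *Il13* counts at the density of olfactory receptor counts. The 43 *Il4* counts (3.59 CPM) of Lyve-1- replicate 1 stood against 0.0421 at its own density. The 122 receptor counts of that library, however, lay on 4 of the 1112 receptor genes. Its mean density therefore cannot settle whether the 43 counts are stray. The decoy receptor *Il13ra2* reached 36 counts in Lyve-1- replicate 3 and 3 or fewer elsewhere. None of these 3 genes passed the filter. Markers of cells that make the ligands summed to 38.8 to 145 CPM in Lyve-1- and 14.7 to 60.0 CPM in Lyve-1+ libraries for eosinophils (*Ear6* at 0 in all) and to 39.1 to 81.9 and 41.3 to 241 CPM for mast cells and basophils (*Mcpt8* at 0 in all). The lymphocyte and innate lymphoid cell markers, lower in every Lyve-1+ library as given above, were highest in Lyve-1- replicate 1, the library with most *Il4*. Their part in the *Il4* counts was not tested. *Il2rg*, the common gamma chain, had 86.1, 184 and 129 CPM in the Lyve-1- and 56.2, 129 and 160.1 CPM in the Lyve-1+ replicates, and a value of -0.21 on the log2 scale (edgeR adjusted p = 1).

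Of the 11 kinases, adaptors and coactivators with *Stat6* among them, 0 passed at an edgeR adjusted p under 0.05. An unadjusted p under it was found for 1 of them and for 7.69% of all genes. There were 5 log2 fold changes above 0 and 6 below. The receptor kinases *Jak1*, *Jak3* and *Tyk2* had values of -0.18, -0.20 and -0.11. *Jak2*, a kinase of many cytokine receptors, stood apart with 596, 495 and 483 CPM in Lyve-1- replicates 1, 2 and 3 and 83.6, 221 and 286 CPM in the Lyve-1+ replicates. Its subsets did not overlap, and its log2 fold change of -1.41 did not pass by edgeR (adjusted p = 0.145). The DESeq2 adjusted p of *Jak2* was 0.023. The adaptor gene *Irs1* had the highest value of this group, 0.99 with an SE of 1.06 (edgeR adjusted p = 1).

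All 5 genes that restrain the pathway had log2 fold changes below 0, as did 6754 of the 13348 genes tested. Of the 5, 0 had an edgeR adjusted p under 0.05 and 1 an unadjusted p under it, against 7.69% of all genes. The 5 ran from -0.14 for *Ptpn6*, a phosphatase, to -1.38 for *Cish* (edgeR adjusted p = 0.551), a feedback inhibitor that STAT proteins induce. *Cish* had 70.6, 15.1 and 59.3 CPM in the Lyve-1- and 12.2, 19.3 and 24.1 CPM in the Lyve-1+ replicates, so the pair numbered 2 went the other way.

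Of the 8 transcription factors and chromatin enzymes that act with STAT6 in macrophages, 4 log2 fold changes were above 0 and 4 below. An edgeR adjusted p under 0.05 was found for 0, and an unadjusted p under it for 2 and for 7.69% of all genes. *Klf4*, a factor that cooperates with STAT6, had 702, 528 and 573 CPM in Lyve-1- replicates 1, 2 and 3 and 1446, 600.1 and 1293 CPM in the Lyve-1+ replicates. Its replicate 2 in the Lyve-1+ subset lay within the Lyve-1- range, and its fitted difference was 0.89 on the log2 scale (SE 0.30, edgeR adjusted p = 0.339). *Pparg*, the fatty acid sensor, had the lowest value at -0.59 with an SE of 0.80 (edgeR adjusted p = 1).

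Among the target genes, 16 of 17 were tested, with 9 log2 fold changes above 0 and 7 below and a median of 0.22. *F13a1*, which encodes the A chain of coagulation factor XIII, was the gene that passed at an edgeR adjusted p under 0.05. It had 1296, 1138 and 740.2 CPM in Lyve-1- replicates 1, 2 and 3 and 6212, 2842 and 3384 CPM in the Lyve-1+ replicates. The subsets did not overlap, and *F13a1* rose by 1.97 on the log2 scale (SE 0.31, edgeR adjusted p = 0.012). Without Lyve-1- replicate 3 the adjusted p was 0.0751, and without that library and Lyve-1+ replicate 1 the value was 1.34 (edgeR adjusted p = 0.135), while over the 17 alternatives the adjusted p ran from 9.9e-11 to 0.135. The fit without both libraries kept a 6-week library only in the Lyve-1- subset, so it mixed age with subset. Like *Mrc1*, *F13a1* is among the genes the study picked on these libraries.

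*Ccl24*, an eosinophil attractant, had the highest fitted value, 2.17 (SE 0.53, edgeR adjusted p = 0.104, DESeq2 adjusted p = 0.0181). Its levels were 23.5, 13 and 14.5 CPM in the Lyve-1- and 114, 26.7 and 89.8 CPM in the Lyve-1+ replicates, without overlap. *F13a1*, *Mrc1*, *Clec10a* and *Ccl24* were the 4 of 16 target genes with all Lyve-1+ libraries above all Lyve-1- libraries, an order that 7.82% of all genes had. *Ccl22* and *Clec7a* were the 2 of 16 with the opposite order, which 867 of the 13348 genes tested had.

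Other targets lay on the opposite side. *Pdcd1lg2*, which encodes the inhibitory ligand PD-L2, had 0.668, 33.9 and 7.97 CPM in the Lyve-1- replicates and 0.909, 0.286 and 0 CPM in the Lyve-1+ replicates. Its fitted log2 fold change was -5.09 (SE 1.88, edgeR adjusted p = 0.415, DESeq2 adjusted p = 0.0263). The chemokine genes *Ccl22* and *Ccl17*, both ligands of CCR4 and both named after their values were seen, had values of -3.77 and -3.18 on the log2 scale (edgeR adjusted p = 0.462 and 0.538). *Ccl22* had 138, 385 and 718 CPM in Lyve-1- replicates 1, 2 and 3 and 3.26, 33.5 and 54.5 CPM in the Lyve-1+ replicates. With age as a second term its log2 fold change was -4.19 (edgeR adjusted p = 0.000337). In the 10-week libraries alone it was -3.65 (edgeR adjusted p = 0.00105), and the DESeq2 adjusted p was 0.0392. Over 17 alternatives the adjusted p of *Ccl22* ran from 3.8e-08 to 0.99996, with a log2 fold change of -4.48 to -2.59. *Clec7a*, which encodes the beta-glucan receptor Dectin-1 and was also named after its values were seen, had 253, 358 and 292 CPM in the Lyve-1- and 48.6, 217 and 212 CPM in the Lyve-1+ replicates, a value of -0.92 on the log2 scale (SE 0.45, edgeR adjusted p = 0.704).

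*Ccl17*, *Ccl22* and *Pdcd1lg2* are also made by mature dendritic cells, whose markers differed the same way. *Ccr7* had 138, 455 and 502 CPM in the Lyve-1- and 14.7, 59.3 and 106 CPM in the Lyve-1+ replicates, and *Fscn1* had 69, 396 and 537 against 17.1, 58.2 and 61.4 CPM. All 8 dendritic markers had log2 fold changes below 0, with a median of -1.41, and none was at 0 in all libraries. Their part in the levels of *Ccl17*, *Ccl22* and *Pdcd1lg2* was not tested. The dendritic sum was also lower in each library of the subset with the higher means of *Mrc1*, *Retnla*, *Clec10a* and *F13a1*, and its part in those was not tested either.

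**Figure D5:**
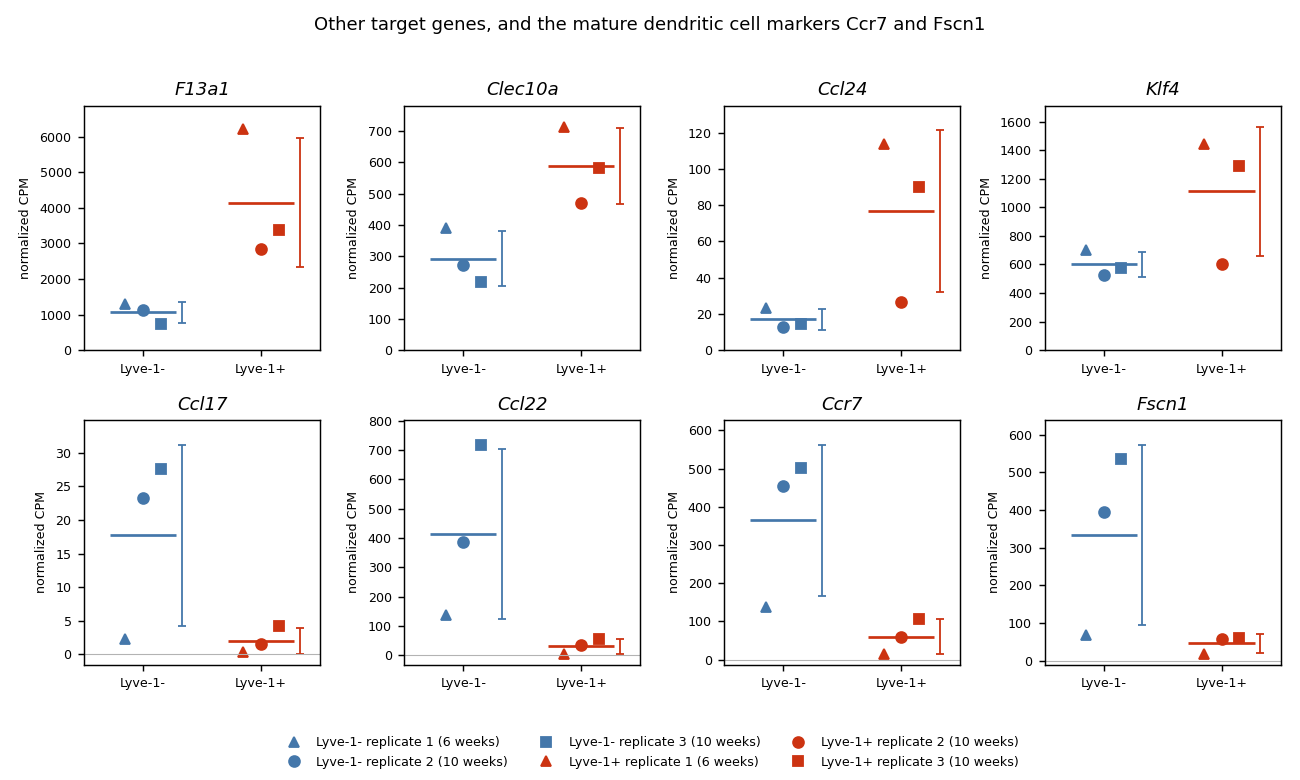
Normalized CPM of *F13a1*, *Clec10a*, *Ccl24*, *Klf4*, *Ccl17* and *Ccl22* beside the dendritic cell markers *Ccr7* and *Fscn1* in the 6 libraries, with the mean (line) and SD (bar, n = 3 pools) of each subset. *F13a1* runs from 740.2 to 1296 in Lyve-1- and from 2842 to 6212 in Lyve-1+ libraries, whereas *Ccl22*, *Ccr7* and *Fscn1* are lower in every Lyve-1+ library.

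The genes of arginine uptake and use had a median log2 fold change of -0.04. Of 8 genes of arginine use 6 were tested, with 0 at an edgeR adjusted p under 0.05 and 2 at an unadjusted p under it. For all genes the share at that unadjusted p was 7.69%. *Arg2*, the mitochondrial arginase, had 31.7, 32.1 and 27.7 CPM in Lyve-1- replicates 1, 2 and 3 and 7.12, 12.9 and 7.89 CPM in the Lyve-1+ replicates. Its subsets did not overlap, with a fitted value of -1.71 on the log2 scale (SE 0.62, edgeR adjusted p = 0.406). *Nos2*, which competes for arginine in classically activated macrophages, had 28 counts or fewer in every library, and *Ass1* had 0 in all.

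Of 18 sequence relatives of the 8 genes, 13 were tested, with 7 log2 fold changes above 0 and 6 below. At an edgeR adjusted p under 0.05 0 of the 13 passed. At an unadjusted p under it 3 did (*Ly75*, *Clec10a* and *Arg2*), against 7.69% of all genes. In the mannose receptor family, *Mrc1* lay at 1.21, *Mrc2* at 0.75 (SE 0.95, edgeR adjusted p = 1) and *Ly75*, the dendritic cell receptor DEC-205, at -2.84 (SE 0.77, edgeR adjusted p = 0.181). *Ly75* had 18.4, 96 and 74.4 CPM in the Lyve-1- and 2.05, 7.76 and 16.7 CPM in the Lyve-1+ replicates, without overlap. Its DESeq2 adjusted p was 0.0194.

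The genes closest to each of the 8 in pattern were those with the smallest root-mean-square difference in centred log2 CPM over the 6 libraries. For *Mrc1* they were *C1qb*, *Ctnnd1* and *Gstm1*, at 0.0843 to 0.157, beside an SD of 0.740 for *Mrc1* itself. For *Retnla* they were *Blvrb*, *Alox5* and *Cgnl1* (0.151 to 0.209), and for *Mgl2* they were *Cfp*, *Tppp3* and *Phf20* (0.0849 to 0.102). *Il4ra* was closest to *Mark4*, *Calm3* and *Anp32e*, *Il13ra1* to *Hiatl1*, *Imp4* and *Slc7a6os*, and *Stat6* to *Fubp1*, *Hook3* and *Rpl3*, all at 0.0752 to 0.139. *Arg1* was nearest to *Rps27a*, *Ly6c2* and *Ms4a4c* (0.337 to 0.603) and *Chil3* to *Pcbp4*, *Cox20* and *Ms4a4c* (0.651 to 0.727). These differences are larger, but so were the SDs of *Arg1* and *Chil3*, 1.74 and 2.10. Those of the others ran from 0.215 (*Stat6*) to 0.912 (*Retnla*). The 6 points of each gene share libraries and depth, and no test was made of these likenesses.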

How the data were processed

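RNA-seq was done on 6 libraries, each from the sorted cells of 4 mice (RNeasy Mini and the SMARTer Stranded Total RNA-seq Pico kit). Paired 50-bp reads had been aligned to mm10 by the authors (Hisat2 2.0.2) and counted per gene symbol with featureCounts 1.5.0, and the deposited values are raw counts, not normalized. The strand setting and annotation are not given in the sources used here, and 1 failed 6-week library, left out by the authors, was not used here. Replicate and age labels came with the samples.

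Low genes were dropped by filterByExpr (grouped by subset), and the rest were scaled by TMM and compared with edgeR 4.0.16 (quasi-likelihood F test, robust, R 4.3.3, limma 3.58.1) with Benjamini-Hochberg adjustment over all 13348 genes. The subset was the only term; age was tested in a model that also held the subset, and their interaction in another. The common biological coefficient of variation was 0.931. Centred log2 CPM used a prior count of 2. Positions and exon lengths came from GENCODE M21 (mm10), with 22757 symbols matched directly and 934 by synonym. Scripts were tested on simulated data.

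The 8 genes, lists and tests were chosen with earlier results of these data known. Named genes were the 8, in each list those at an adjusted p under 0.05 and the highest and lowest log2 fold change, and for each of the 8 its 3 nearest genes; others are named after their values were seen. Alternatives were DESeq2 1.42.0, its size factors, total library size, no filter, at least 10 counts in every library, removal of ribosomal, other structural RNA and mitochondrial genes, the 10-week libraries alone, age as a covariate, a replicate block, removal of the 2 libraries with most olfactory receptor genes detected, each library left out in turn, and, added after the data were seen, both replicate 2 libraries left out.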

Additional observations from a re-analysis of the deposited data

How the results depend on the processing

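The count of the 8 genes called for the subset, 0, became 1 with DESeq2 (*Mrc1*), 2 without a filter on low counts and 2 with the replicate block (*Mrc1* and *Retnla* in both), and was 0 to 1 with each library left out, the 1 being *Retnla* without Lyve-1- replicate 1. For age it was 0 to 2 with each library left out. The count of pathway genes called, 0, became 1 at an adjusted p under 0.05 without a fold limit, 2 with DESeq2, 5 without a filter, 1 at 10 or more counts, 4 with the replicate block, 2 with age as a covariate, 1 in the 10-week libraries alone and 2 without both replicate 2 libraries (added), and 0 to 2 with each library left out. Over all genes the calls numbered 15, then 151 with DESeq2, 188 without a filter, 33 at 10 or more counts, 140 with the replicate block, 58 with age, 50 without both replicate 2 libraries, 0 without Lyve-1- replicate 3 and Lyve-1+ replicate 1 (the 2 libraries with most olfactory receptor genes detected), and 1 to 81 with each library left out, lowest without Lyve-1- replicate 3. The cause was not tested, and the fit without those 2 libraries kept a 6-week library only in the Lyve-1- subset. Deviations of same-numbered libraries correlated at -0.0462, -0.00183 and -0.147, and no library correlated best with its own number. The sources do not say whether same-numbered libraries shared mice, and these correlations cannot decide it.

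Signs turned for log2 fold changes near 0 or with wide errors. *Mgl2* was -0.10 without those 2 libraries. *Chil3* was -0.025 and *Arg1* -0.41 with the replicate block, and *Arg1* was -1.26 without both replicate 2 libraries. *Stat6* was -0.0075 by total library size and -0.16 at 10 weeks alone. *Il2rg* was 0.076 without those 2 libraries and 0.0097 without both replicate 2 libraries. With each library left out, the ranges were -2.50 to 2.70 for *Chil3*, -2.27 to 1.70 for *Arg1*, -0.48 to 0.13 for *Il13ra1*, -0.048 to 0.23 for *Stat6*, -0.52 to 0.16 for *Il2rg* and -2.35 to 0.037 for *Pparg*, and *Mrc1* (0.93 to 1.36), *Retnla* (0.75 to 1.72) and *Il4ra* (0.17 to 0.56) kept their sign. The other scalings moved the median of all genes to -0.04 (DESeq2 size factors) and -0.07 (total size), and DESeq2 and the fit without a filter, over more genes, to -0.30 and -0.27. Low counts limit *Arg1*, *Il4* and *Il13*, and the spread between pools limits *Chil3*.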
